A study of Mus musculus with 24 samples.

Results

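The 8 genes described here encode the apoptosome scaffold Apaf1, the caspases Casp9, Casp8, Casp2 and Casp6, the caspase inhibitor Xiap and the mitochondrial proteins Diablo and Aifm1. They were chosen by symbol from the 21671 genes listed in each sample, and all 8 were found in all 24 samples. The study profiled gene expression by RNA-Seq of ribosomal RNA-depleted total RNA in the spleens of C57/Bl6 mice aged 8 weeks. B cells were purified on magnetic beads against B220, and non-B cells were what flowed through the column after lysis of red cells, a mixture enriched in T cells. Mice were either Trp53+/+ or Trp53-/-, that is, knockout for the tumor suppressor p53. They were either left unstressed (mock) or exposed to 7 Gy of whole-body ionizing radiation (IR) and analyzed 4 h later. Each of the 8 groups defined by cell type, genotype and treatment had 4 samples when Trp53+/+ and 2 when Trp53-/-. The knockout was carried by the whole animal, so that the Trp53-/- B cells came from spleens whose other cells also lacked p53.

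In the mitochondrial pathway of apoptosis, cytochrome c released from mitochondria binds Apaf1, which assembles into a wheel-like platform, the apoptosome, that recruits and activates the initiator caspase Casp9. Casp9 in turn cleaves executioner caspases, Xiap binds and blocks Casp9 and some executioners, and Diablo (Smac) leaves the mitochondria to relieve that block. Lymphocytes die readily by this route after irradiation in the presence of p53, and Apaf1 is among the known direct targets of p53.

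Levels are given as RPKM, reads per kilobase of exon and per megaread (M) mapped to exons, as deposited. Estimated from the steps between low values, each sample held 4.71 to 10.96 M exon reads, and a member was covered by 55 to 4959 reads. Irradiated Trp53+/+ B cells had 4.71 to 7.61 M against 7.52 to 10.2 M unstressed, and irradiated Trp53-/- B cells had 8.72 and 9.16 M. Trp53+/+ non-B cells had 6.94 to 10.18 M irradiated and 8.46 to 10.96 M unstressed. The part of depth in the differences was not tested. Reads on Trp53 itself were still counted in the Trp53-/- samples, at 21.6 and 21.7 RPKM in unstressed B cells and 23.97 and 25.04 in unstressed non-B cells against 43.4 to 49.5 in unstressed Trp53+/+ samples. After IR the knockout had 40.5 and 41.8 RPKM in B cells, below the 58.7 to 65.8 of Trp53+/+ B cells, but 34.6 and 36.4 in non-B cells, within reach of the 35.0 to 38.6 of Trp53+/+ non-B cells, so this gene-level value did not mark the genotype there. The p53 target Cdkn1a did, at 0.562 to 2.63 RPKM in irradiated Trp53-/- and 69.6 to 97.8 in irradiated Trp53+/+ samples. The 6 B cell markers summed to 692 to 881 RPKM in Trp53+/+ B cells and to 181 to 434 in Trp53+/+ non-B cells, where 6 T cell markers reached 229 to 392.4, so the flow-through was not free of B cells, and none of these 12 markers was at 0 in any sample. The 5 erythroid markers found summed to 37.6 to 75.2 RPKM in unstressed and 9.32 to 18.8 in irradiated Trp53+/+ B cells, and to 86.0 to 231 and 14.7 to 46.1 in non-B cells. Reads on 1440 olfactory and vomeronasal receptor genes, which should be silent in spleen, gave values above 0 for 5.42% to 9.31% of these genes in unstressed samples, but for 7.01% to 51.3% in irradiated Trp53+/+ samples. Irradiated Trp53-/- samples stayed at 6.88% to 13.1%. The share was 36.7%, 47.3%, 7.01% and 15.97% in replicates 1 to 4 of irradiated B cells and 24.7%, 8.61%, 51.3% and 35.8% in those of non-B cells. The fit with a covariate used the log2 mean RPKM of these genes, not this share. Its values are given only for Apaf1 and for some counts of all genes. For the other members this fit enters the ranges over alternatives. In such bulk samples, fewer cells of a type and less RNA per cell cannot be told apart.

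The 8 genes were all expressed at moderate levels, from 4.19 to 60.3 RPKM over 192 values. Apaf1 was the most variable, its 8 group means spanning 2.84 on the log2(RPKM + 0.5) scale, followed by Casp9 with 1.54 and Casp6 with 1.204. The other 5 spanned 0.80 (Diablo), 0.62 (Casp8), 0.50 (Xiap), 0.47 (Casp2) and 0.45 (Aifm1). The sum of the 8 averaged 185 RPKM in unstressed and 186 in irradiated Trp53+/+ B cells, 190.1 and 157 in Trp53-/- B cells, 182 and 194 in Trp53+/+ non-B cells, and 182 and 170.2 in Trp53-/- non-B cells. Unstressed and irradiated samples were apart in this sum for the Trp53-/- groups and overlapped for the Trp53+/+ groups.

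**Figure D1:**
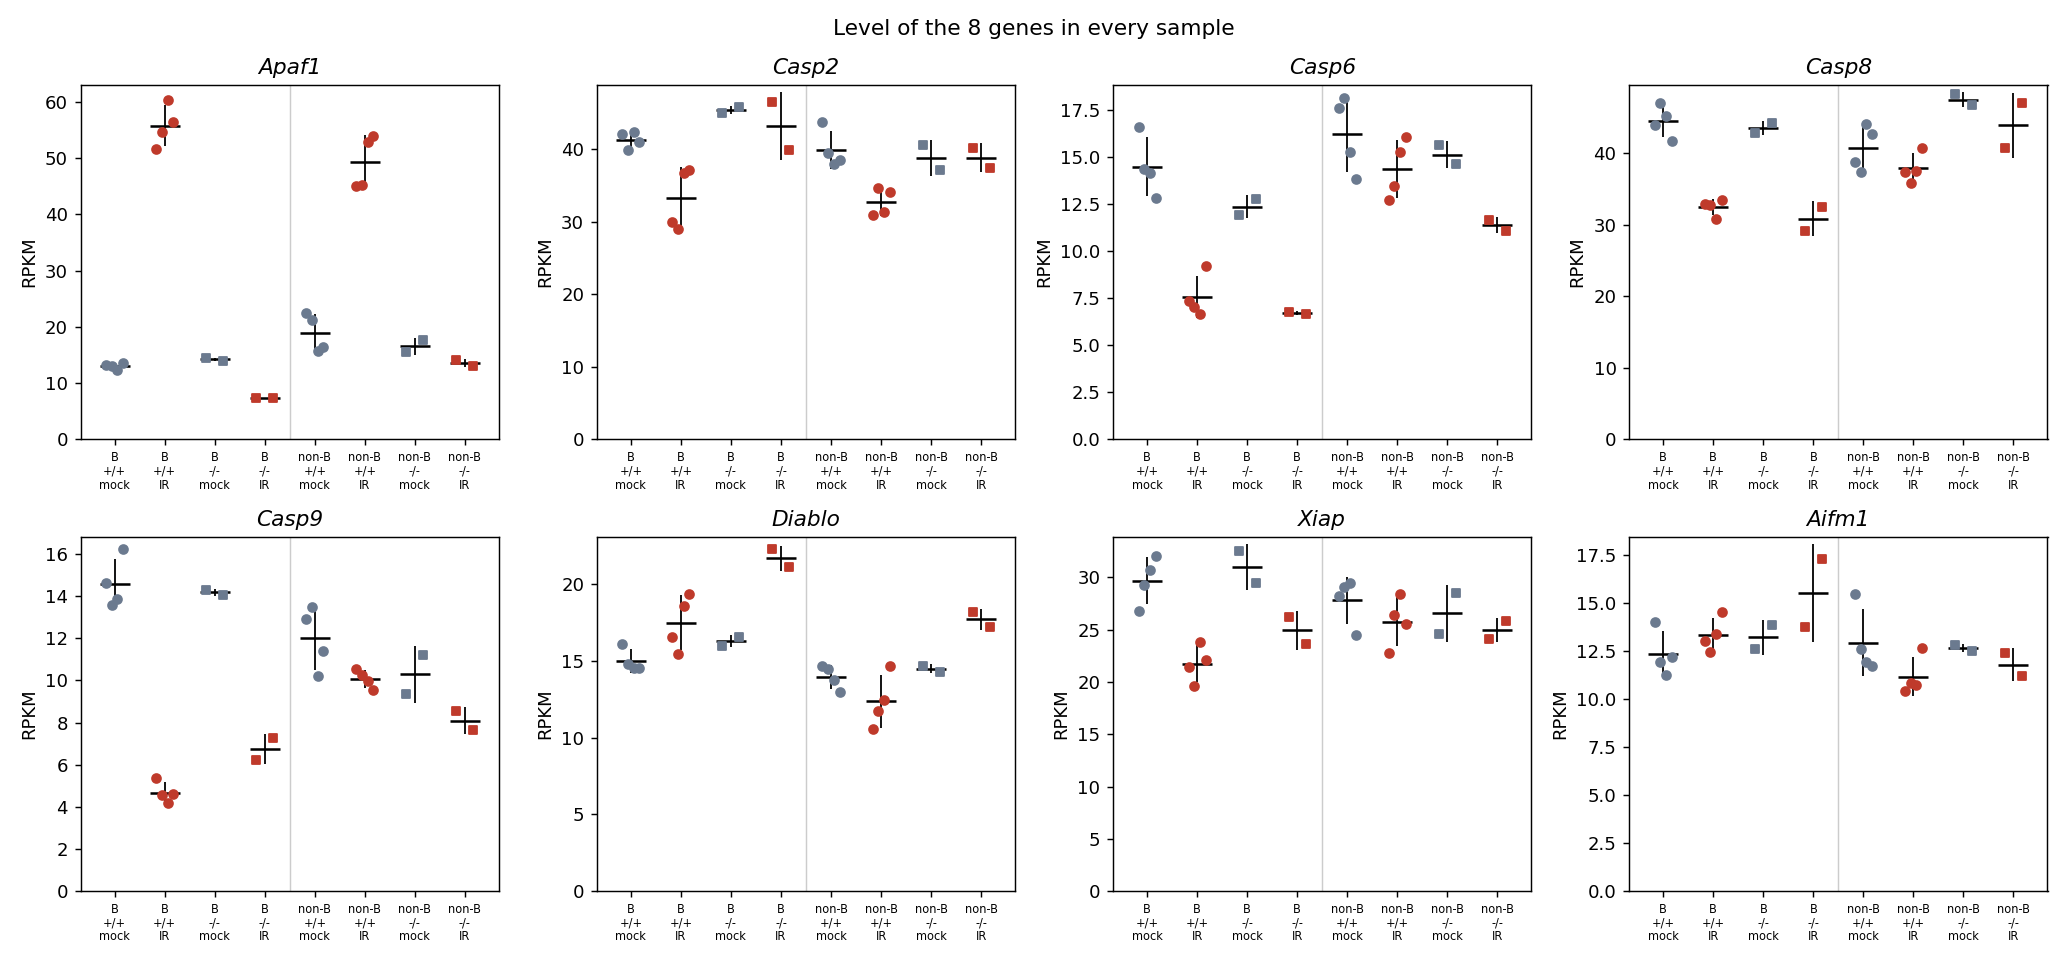
RPKM (vertical axes, from 0) of the 8 genes in every sample of the 8 groups (horizontal axes), with circles for Trp53+/+, squares for Trp53-/-, grey for mock and red for IR, and bars for mean ± SD. Apaf1 stands at 51.5 to 60.3 RPKM in irradiated Trp53+/+ B cells and at 7.31 and 7.42 in irradiated Trp53-/- B cells, while the 8 group means of Aifm1 span only 0.45 on the log2 scale.

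On the mm9 (NCBIM37) assembly, the genes lie on 7 chromosomes. Apaf1 spans chr10:90452056-90545515 on the minus strand and Casp9 chr4:141349527-141371891 on the plus strand. The other caspases are Casp2 at chr6:42214984-42232507, Casp6 at chr3:129604343-129617021 and Casp8 at chr1:58852218-58904347, all on the plus strand. Xiap (chrX:39412856-39462833, plus) and Aifm1 (chrX:45828121-45866740, minus) share the X chromosome, and Diablo is at chr5:123959774-123974185 (minus). Casp9 shares 94 exonic bases with Cela2a and Diablo shares 1448 with B3gnt4 and Gm15751 together. These overlaps are by GENCODE exons, whereas the study counted reads on UCSC gene annotation. The library kit did not mark strand, so reads on those bases cannot be told apart. Cela2a had a median of 0.195 RPKM and a maximum of 2.51, and B3gnt4 a median of 0.224 and a maximum of 0.41. The part of these bases in the values was not tested.

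The promoters of Apaf1 and Casp9 are shown because these partners within the apoptosome had the largest responses of the 8 to IR in Trp53+/+ B cells, in opposite directions. Each is the 250 bases upstream of the RefSeq start, taken from the GRCm38.p6 table, written 5′ to 3′ on the gene's strand and located on NCBIM37 by its single exact match, at chr10:90545489-90545738 for Apaf1 and chr4:141349277-141349526 for Casp9. Capitals mark matches to CNNGNNNNNNCNNG, a loose core pattern of p53 sites that is its own reverse complement, and overlapping matches run together.
Apaf1: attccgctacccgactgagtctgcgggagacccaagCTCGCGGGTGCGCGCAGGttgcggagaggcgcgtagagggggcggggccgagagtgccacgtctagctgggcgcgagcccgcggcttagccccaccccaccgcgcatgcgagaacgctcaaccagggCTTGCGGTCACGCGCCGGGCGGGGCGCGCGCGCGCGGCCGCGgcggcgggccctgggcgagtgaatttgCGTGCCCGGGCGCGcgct
Casp9: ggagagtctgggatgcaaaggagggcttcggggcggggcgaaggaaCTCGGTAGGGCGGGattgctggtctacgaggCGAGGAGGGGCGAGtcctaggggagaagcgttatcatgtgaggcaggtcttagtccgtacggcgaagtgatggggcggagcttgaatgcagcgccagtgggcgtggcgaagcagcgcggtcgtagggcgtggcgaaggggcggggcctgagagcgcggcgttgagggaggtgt
The Apaf1 stretch is 75.6% G and C and holds 6 matches, and the Casp9 stretch is 66.0% G and C and holds 2, against a median GC content of 52.4% over 32851 promoters. The pattern is common, occurring in 63.5% of all promoters and in 8 of the 10 of the members (Xiap has 3). The stricter p53 half-site consensus, searched on both strands, was in none of the 10 and in 7.13% of all promoters. A match is a description of letters, and its absence from these 250 bases draws nothing about p53 binding.

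In B cells of Trp53+/+ mice, IR shifted the members in opposite directions: Apaf1 rose to about 4 times its level while Casp9 and Casp6 fell. A gene was called when the adjusted p of limma on log2(RPKM + 0.5) was under 0.05 and the log2 difference was beyond 0.58, a 1.5-fold change. By this rule 1 of 8 members was higher, where 12.5% of the 13821 genes tested were, and 2 were lower, where 12.2% of all genes were. Casp8, Xiap and Casp2 also fell and Diablo rose with adjusted p under 0.05, but by less than that size. In Trp53-/- B cells, Apaf1, Casp9 and Casp6 were all called lower, 3 of 8 against 11.2% of all genes, and 0 of 8 higher against 13.1%. The median log2 difference of the 8 was -0.38 in Trp53+/+ and -0.40 in Trp53-/- B cells, beside 0.01 and 0.02 over all genes.

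In non-B cells of Trp53+/+ mice, Apaf1 was again higher, 1 of 8 members against 5.74% of 14018 genes, and 0 of 8 were lower against 4.11%. In Trp53-/- non-B cells 0 of 8 members were called and 0.442% of all genes were, with Casp6 the 1 member at an unadjusted limma p under 0.05. The median of the 8 was -0.17 in Trp53+/+ and -0.11 in Trp53-/- non-B cells, beside -0.03 and -0.02 over all genes. Counting only overlap, the 4 irradiated and 4 unstressed Trp53+/+ samples were fully apart for 6 of 8 members in B cells, all but Diablo and Aifm1, and for 46.2% of all genes. In non-B cells they were apart for 2 of 8, Apaf1 and Casp2, and for 22.1% of all genes. With 4 samples against 4, the two-sided exact permutation test of 1 gene cannot give less than p = 0.0286, which those 8 separations reached, and their adjusted p over the 16 tests was 0.0571.

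**Figure D2:**
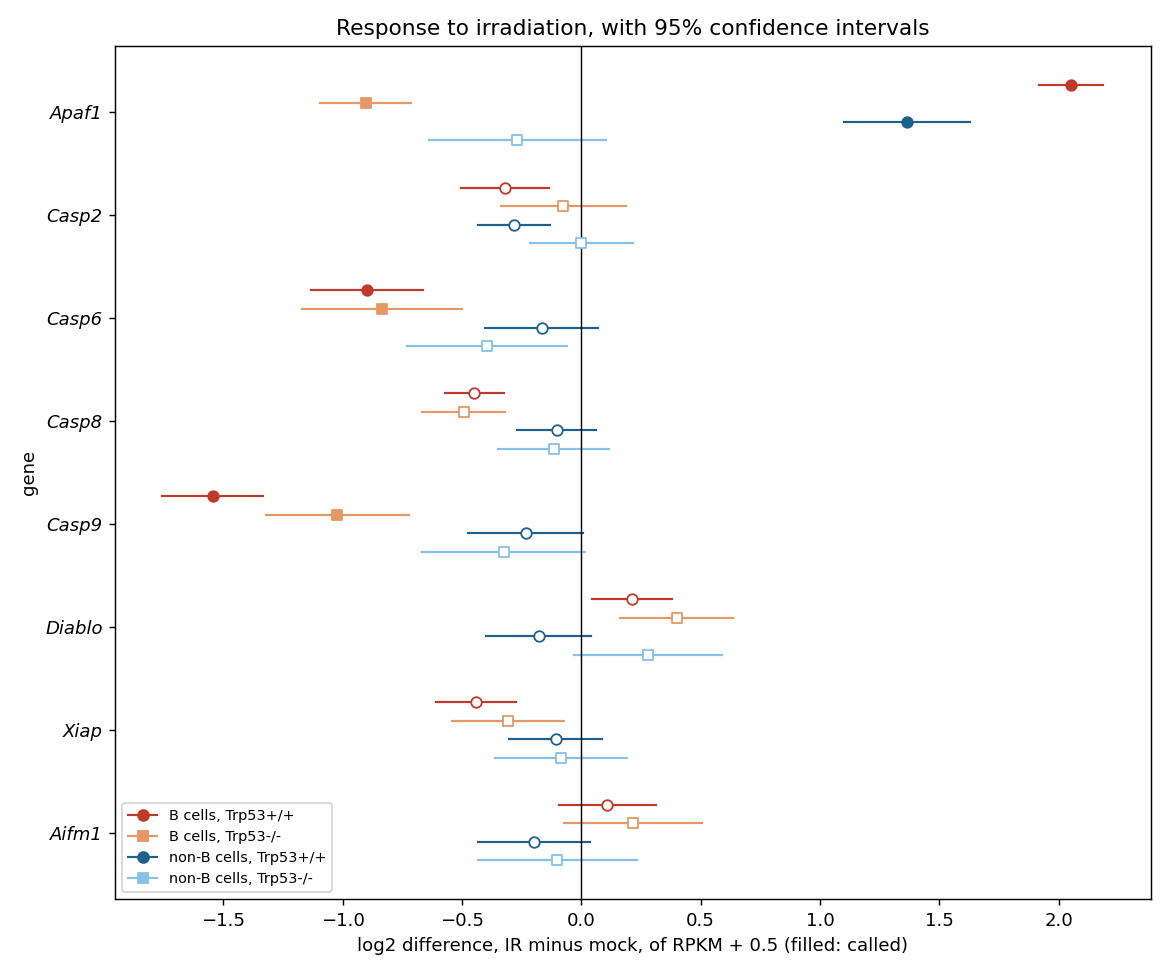
Log2 difference in log2(RPKM + 0.5) between irradiated and unstressed samples (horizontal axis) for each member in both cell types and genotypes, with 95% confidence intervals from limma and filled points for called genes. Apaf1 lies at 2.05 and 1.37 in Trp53+/+ B and non-B cells but at -0.90 in Trp53-/- B cells, whereas Casp9 and Casp6 lie below 0 in B cells of both genotypes.

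Apaf1, the scaffold, was at 13.3, 13.1, 12.2 and 13.5 RPKM in the 4 unstressed Trp53+/+ B cell samples and at 51.5, 54.6, 60.3 and 56.3 after IR. The lowest irradiated sample was thus far above the highest unstressed one. The increase was 4.15-fold (log2 difference 2.05, SE 0.06, 95% interval 1.92 to 2.19, limma adjusted p = 1.74e-10). In Trp53-/- B cells, the 2 unstressed samples had 14.4 and 13.99 RPKM and the 2 irradiated ones 7.31 and 7.42. Unstressed cells of both genotypes thus had like levels, while the irradiated ones stood at opposite ends of the range. Without p53, Apaf1 fell by 0.90 (SE 0.09, adjusted p = 9.79e-06), and this was the lowest group of all 8, overlapping no other.

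In Trp53+/+ non-B cells, Apaf1 was at 22.4, 21.2, 15.8 and 16.4 RPKM unstressed and at 45.1, 45.2, 52.9 and 54.0 after IR, again without overlap. The increase was 2.58-fold (log2 difference 1.37, SE 0.12, adjusted p = 2.56e-05). Trp53-/- non-B cells had 15.4 and 17.6 RPKM unstressed and 14.2 and 13.1 after IR, a difference of -0.27 (95% interval -0.64 to 0.10) with adjusted p = 0.488. Irradiated Trp53+/+ B and non-B cells overlapped at the top of the order of groups, with means of 55.7 ± 3.66 and 49.3 ± 4.81 RPKM (SD, n = 4), and both were apart from the 6 other groups. With the level of silent genes as a covariate, the increases were 2.11 in B cells (adjusted p = 5.06e-09) and 1.31 in non-B cells (adjusted p = 0.015). The erythroid markers given above were lower in the same samples. The 6 macrophage markers summed to 242 to 319 RPKM in unstressed and 176 to 270.3 in irradiated Trp53+/+ B cells, and to 294 to 353 and 328 to 482 in non-B cells. The 6 proliferation markers summed to 53.6 to 124 and 42.4 to 59.4 in B cells, and to 84.6 to 292 and 54.0 to 114 in non-B cells. The part of these markers in the differences was not tested.

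Casp9, the initiator caspase that the apoptosome activates, went the other way. It was at 14.6, 13.6, 13.9 and 16.2 RPKM in unstressed Trp53+/+ B cells and at 5.35, 4.56, 4.19 and 4.62 after IR. The groups did not overlap, and the irradiated group was the lowest of the 8 for this gene. Casp9 fell by 1.54 on the log2 scale (SE 0.10, adjusted p = 9.2e-08), to 0.343 times its level on the scale with the pseudocount. Trp53-/- B cells went from 14.3 and 14.1 RPKM to 6.23 and 7.26, a fall of similar direction but ending above all 4 irradiated Trp53+/+ samples. That fall was by 1.02 (SE 0.14, adjusted p = 0.000106).

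In non-B cells, Casp9 was at 12.9, 13.5, 10.2 and 11.4 RPKM unstressed and at 10.6, 10.2, 9.98 and 9.56 after IR in Trp53+/+ mice. These ranges overlapped, and the difference of -0.23 (95% interval -0.47 to 0.01) had adjusted p = 0.157. Trp53-/- non-B cells had 9.34 and 11.2 RPKM unstressed and 8.54 and 7.64 after IR, with a difference of -0.32 and adjusted p = 0.344.

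Within single samples, the ratio of Apaf1 to Casp9 brings both changes together and needs no scaling between samples. It was chosen after the values were seen and is given without a test. In Trp53+/+ B cells it was 0.908, 0.966, 0.882 and 0.832 unstressed and 9.64, 11.99, 14.4 and 12.2 after IR. In Trp53+/+ non-B cells it was 1.73, 1.57, 1.55 and 1.44 unstressed and 4.26, 4.41, 5.30 and 5.64 after IR. All irradiated Trp53+/+ samples were therefore above all unstressed ones, B cells most. Without p53 the ratio was 1.01 and 0.995 unstressed and 1.17 and 1.02 after IR in B cells, and 1.57 to 1.71 in all 4 non-B samples.

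**Figure D3:**
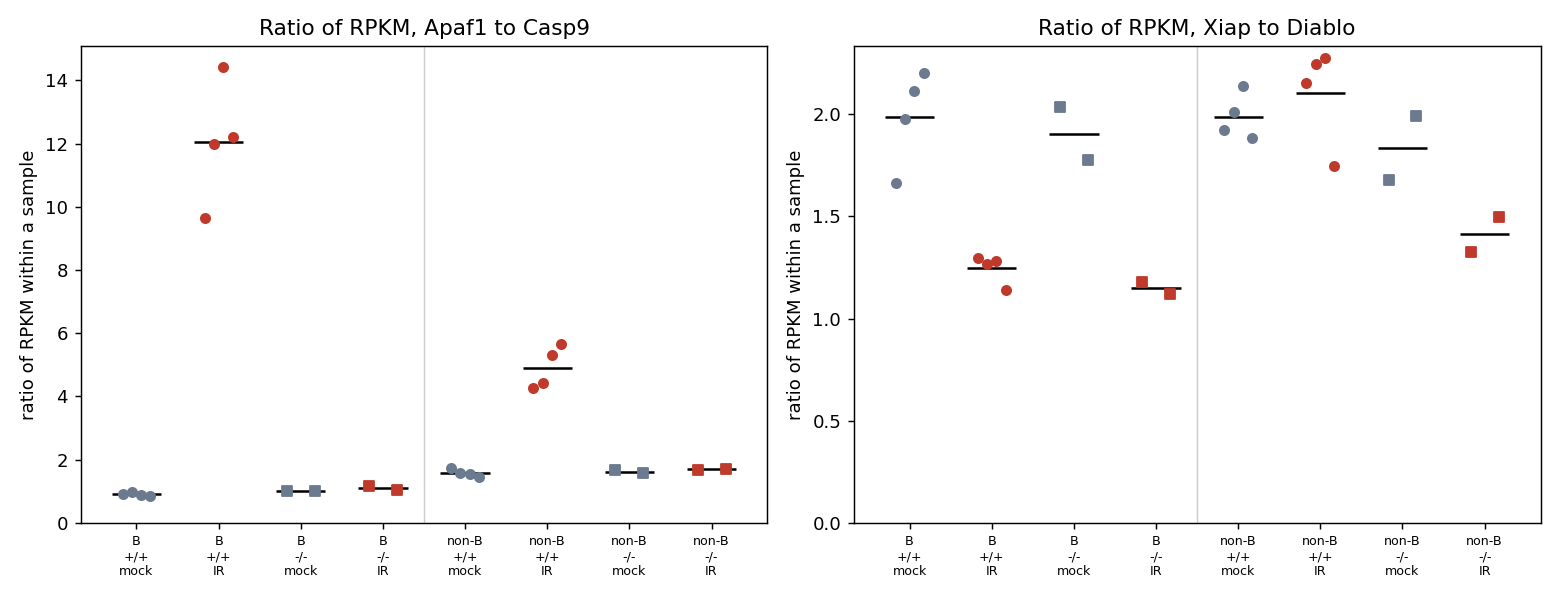
Ratios of RPKM within each sample (vertical axes) for Apaf1 to Casp9 and Xiap to Diablo, by group, with circles for Trp53+/+, squares for Trp53-/-, grey for mock, red for IR and lines for group means. The Apaf1 to Casp9 ratio reaches 9.64 to 14.4 in irradiated Trp53+/+ B cells and stays between 0.995 and 1.71 in the Trp53-/- samples, while the Xiap to Diablo ratio is at 1.12 to 1.29 in irradiated B cells of both genotypes.

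Among the other caspases, Casp6, an executioner that is cleaved downstream of the initiators, showed a B cell response in both genotypes. It was at 16.6, 14.4, 14.1 and 12.8 RPKM in unstressed Trp53+/+ B cells and at 7.34, 7.01, 6.68 and 9.21 after IR. Trp53-/- B cells had 11.9 and 12.8 RPKM unstressed and 6.78 and 6.63 after IR, so that both irradiated groups overlapped at the bottom of the order and no unstressed sample reached them. Casp6 fell by 0.90 (SE 0.11, adjusted p = 2.43e-05) with p53 and by 0.83 (SE 0.15, adjusted p = 0.000986) without it. In non-B cells it was at 17.6, 18.1, 15.3 and 13.8 RPKM unstressed and 12.7, 13.4, 15.2 and 16.04 after IR, overlapping ranges with a difference of -0.17 and adjusted p = 0.299. Without p53 the non-B samples had 15.6 and 14.6 RPKM unstressed and 11.7 and 11.1 after IR, which were apart, but the difference of -0.39 (95% interval -0.73 to -0.06) had adjusted p = 0.234.

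Casp8, the initiator caspase of the death receptor pathway, had the highest mean RPKM of the 8 in unstressed Trp53+/+ B cells, with single values of 44.0, 47.0, 45.1 and 41.7 RPKM. After IR it was at 32.9, 32.7, 30.8 and 33.4, below all 4 unstressed samples. It fell by 0.45 (adjusted p = 3.56e-05) in Trp53+/+ and by 0.49 (adjusted p = 0.00042) in Trp53-/- B cells, both under the size needed for a call. Non-B cells had 37.4 to 44.1 RPKM unstressed and 35.8 to 40.8 after IR with p53, which overlapped (difference -0.10, adjusted p = 0.361). Without p53 they had 48.2 and 46.7 RPKM unstressed and 40.7 and 47.0 after IR, also overlapping, with a difference of -0.12 and adjusted p = 0.662.

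Casp2, the initiator caspase activated on the PIDDosome, was the 1 member besides Apaf1 with adjusted p under 0.05 in both cell types of Trp53+/+ mice. In B cells it was at 42.1, 39.9, 42.3 and 41.0 RPKM unstressed and at 29.9, 29.0, 36.7 and 37.2 after IR. In non-B cells it went from 43.7, 39.5, 37.9 and 38.5 RPKM to 30.9, 34.7, 31.3 and 34.04. The irradiated samples lay below the unstressed ones in both, by 0.32 (adjusted p = 0.0073) and 0.28 (adjusted p = 0.0186), neither past 0.58. Irradiated B cell replicates 1 and 2, the lower ones for Casp2, had the higher shares of silent genes above 0 (36.7% and 47.3%). Over 26 alternatives, among them the silent-gene covariate, the B cell difference ran from -0.47 to -0.13 (limma adjusted p 0.000885 to 0.138). The non-B cell difference ran from -0.34 to -0.14 (limma adjusted p 0.0158 to 0.524). Trp53-/- B cells had 44.9 and 45.8 RPKM unstressed and 46.5 and 39.8 after IR, and the difference of -0.08 had a 95% interval of -0.34 to 0.19. Trp53-/- non-B cells had 40.5 and 37.1 RPKM unstressed and 40.2 and 37.4 after IR, with overlap.

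Of the inhibitor and its antagonist, Xiap was at 26.8, 29.3, 30.7 and 32.0 RPKM in unstressed and 21.4, 19.6, 23.9 and 22.1 in irradiated Trp53+/+ B cells. Diablo was at 16.1, 14.8, 14.5 and 14.5 unstressed and at 16.6, 15.5, 18.6 and 19.4 after IR. Xiap was thus lower without overlap and Diablo higher with overlap. Xiap fell by 0.44 (adjusted p = 0.000426) and Diablo rose by 0.21 (adjusted p = 0.036). Over 26 alternatives, among them the silent-gene covariate, the Diablo difference ran from 0.05 to 0.37 (limma adjusted p 0.00129 to 0.656). In Trp53-/- B cells Xiap went from 32.6 and 29.4 to 26.2 and 23.6 RPKM, and Diablo from 16.005 and 16.6 to 22.3 and 21.1. The differences there were -0.31 (adjusted p = 0.0381) and 0.40 (adjusted p = 0.0108), and again neither gene passed 0.58.

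The Trp53+/+ non-B cells had Xiap at 24.5 to 29.5 RPKM unstressed and 22.7 to 28.4 after IR, and Diablo 13.0 to 14.7 and 10.6 to 14.6. All of these ranges overlapped, with differences of -0.11 (adjusted p = 0.422) and -0.18 (adjusted p = 0.228). In non-B cells without p53, Diablo had 14.7 and 14.3 RPKM unstressed and 18.2 and 17.2 after IR, which were apart, with a difference of 0.28 and adjusted p = 0.371, and Xiap had 24.6 and 28.5 RPKM unstressed and 24.1 and 25.8 after IR. The ratio of Xiap to Diablo within samples, also chosen after the values were seen, was 1.66 to 2.20 in unstressed and 1.14 to 1.29 in irradiated Trp53+/+ B cells, and went from 2.04 and 1.77 to 1.18 and 1.12 in Trp53-/- B cells. In Trp53+/+ non-B cells it was 1.89 to 2.14 unstressed and 1.75 to 2.28 after IR, so that the groups overlapped there, whereas in Trp53-/- non-B cells it went from 1.68 and 1.99 to 1.33 and 1.498, lower without overlap.

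Aifm1, the mitochondrial flavoprotein linked to caspase-independent death, was at 14.01, 11.95, 11.3 and 12.2 RPKM in unstressed and 13.0, 12.4, 13.4 and 14.5 in irradiated Trp53+/+ B cells. Its irradiated and unstressed Trp53+/+ samples overlapped in both cell types and its group means spanned the least of the 8. The differences were 0.11 (95% interval -0.09 to 0.31, adjusted p = 0.347) in B cells and -0.20 (95% interval -0.43 to 0.04, adjusted p = 0.213) in non-B cells. Trp53-/- B cells had 12.6 and 13.9 RPKM unstressed and 13.7 and 17.3 after IR, and the difference of 0.22 had adjusted p = 0.219. Trp53-/- non-B cells had 12.8 and 12.5 RPKM unstressed and 12.4 and 11.2 after IR, which were apart, but the difference of -0.10 had adjusted p = 0.811.

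Whether the response to IR depended on p53 was tested as the difference between genotypes, called at adjusted p under 0.05. In B cells 2 of 8 members were called against 18.8% of all genes. For Apaf1 the responses differed by 2.96 (SE 0.11, adjusted p = 1.17e-08), from 2.05 with p53 to -0.90 without. For Casp9 they differed by -0.52 (SE 0.17, adjusted p = 0.0494), which was lost in 11 of 12 fits that left out 1 sample. For the other 6 the difference was between -0.24 (Casp2) and 0.04 (Casp8) with adjusted p from 0.276 to 0.851, and for Casp6 the 95% interval ran from -0.47 to 0.35. In non-B cells 1 of 8 was called, Apaf1, with a difference of 1.63 (SE 0.21, adjusted p = 0.00129), where 7.35% of all genes were. Both unstressed and irradiated Trp53-/- groups held only 2 samples, which widens these intervals.

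The response of Trp53+/+ B cells differed from that of Trp53+/+ non-B cells for 5 of 8 members, against 28% of 14598 genes, by the same rule. The B cell response was the more positive for Apaf1 by 0.69 (SE 0.15, adjusted p = 0.00245) and for Diablo by 0.39 (SE 0.14, adjusted p = 0.0442). It was the more negative for Casp9 by 1.31 (SE 0.15, adjusted p = 1.41e-05), Casp6 by 0.73 (SE 0.17, adjusted p = 0.00414) and Casp8 by 0.35 (adjusted p = 0.0106). Xiap differed by -0.33 (adjusted p = 0.0501), Aifm1 by 0.31 (adjusted p = 0.122) and Casp2 by -0.04 (95% interval -0.28 to 0.21). With Trp53+/+ replicates 3 and 4 alone the Apaf1 difference was 0.44 (adjusted p = 0.0383), and with replicates 1 and 2 alone it was 0.94. The Diablo call was lost in 16 of 27 alternative fits. B cell markers remained in the Trp53+/+ non-B cells, summing to 273 to 434 RPKM unstressed and 181 to 353 after IR. The erythroid markers there were lower after IR. A difference in cell make-up and one in response per cell therefore cannot be told apart.

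**Figure D4:**
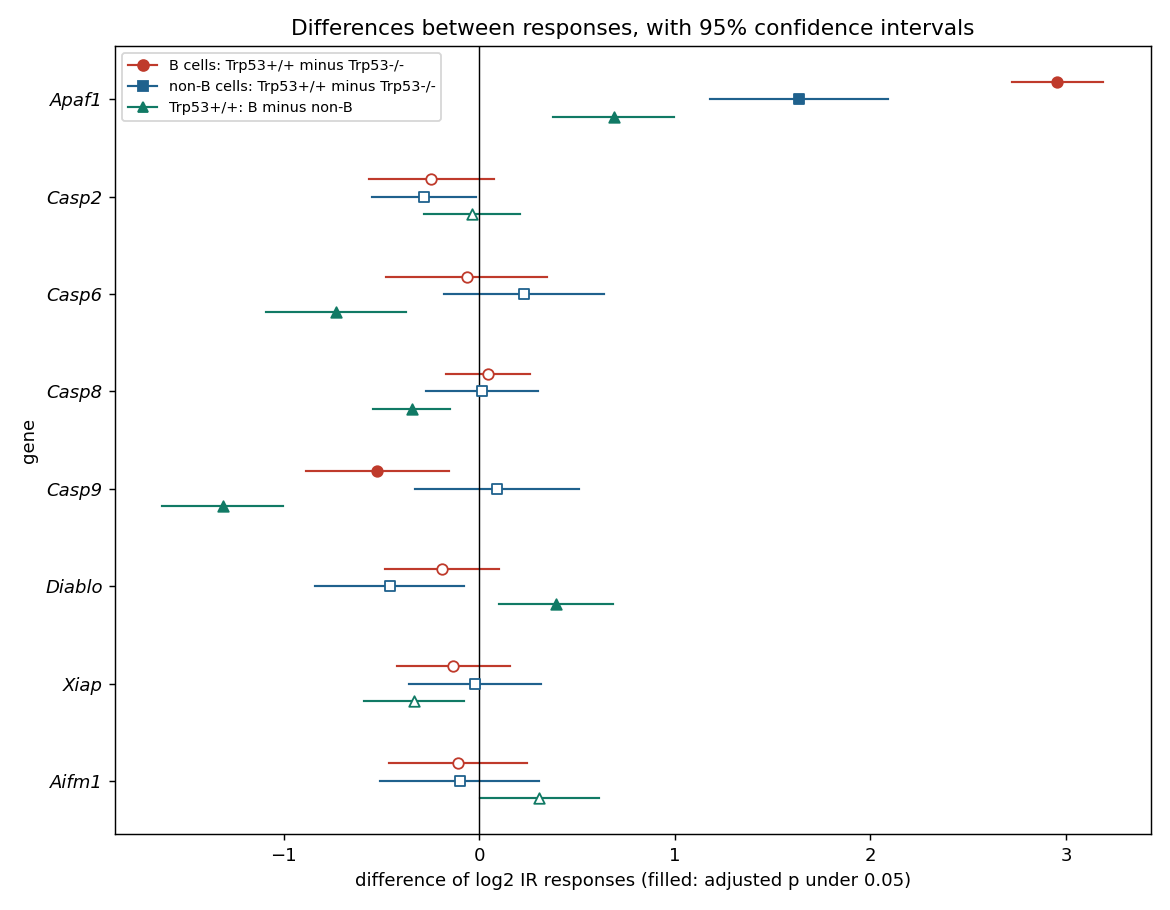
Difference between 2 responses to IR (horizontal axis, log2 scale) for each member, Trp53+/+ minus Trp53-/- within each cell type and B minus non-B in Trp53+/+ mice, with 95% confidence intervals and filled points where adjusted p was under 0.05. Apaf1 is at 2.96, 1.63 and 0.69, and Casp9 at -0.52 in the B cell genotype contrast and -1.31 between cell types.

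Unstressed cells differed little. Between genotypes, limma called 0 of 8 members in B cells, where 0.0506% of all genes were called and 0 members had an unadjusted p under 0.05, and 0 of 8 in non-B cells, where 0.0428% were called and only Casp8 had an unadjusted p under 0.05. The largest of the 8 differences in B cells was -0.22 for Casp6, with a 95% interval of -0.50 to 0.07. Between unstressed Trp53+/+ B and non-B cells, 0 of 8 members passed both thresholds, where 24.6% of all genes did. Apaf1 was lower in B cells by 0.51 (adjusted p = 0.000847) and Casp9 higher by 0.28 (adjusted p = 0.0428), both under 0.58, and these were the only 2 members with an unadjusted p under 0.05.

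The rest of the pathway was followed with a list of 23 other genes, of which 20 passed the filter on low values in the B cell fit and 21 in the non-B cell fit. Casp14 and Aifm3, and in B cells Casp12, were too low. In Trp53+/+ B cells 2 of 20 were called higher and 3 lower, near the 12.5% and 12.2% of all genes, and the median was 0.11 beside 0.01 over all genes. Pidd1, the scaffold of the PIDDosome on which Casp2 is activated, went from 6.87, 5.81, 4.61 and 6.79 RPKM to 52.6, 52.1, 65.2 and 65.9, a rise of 3.20 (adjusted p = 2.14e-09) beside the 2.05 of Apaf1. Dffb, the caspase-activated DNase that cuts chromatin, rose by 1.46 (adjusted p = 1.7e-06). Naip2, Naip5 and Xaf1, of the inhibitor of apoptosis family and its antagonists, fell by 0.71, 0.79 and 0.77, but Naip2 and Naip5 are close paralogs among which reads may be split.

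Cycs, cytochrome c, which triggers the assembly of the apoptosome, was given whatever its values. It was at 26.4, 22.9, 25.7 and 21.6 RPKM in unstressed and 31.0, 30.3, 33.0 and 31.9 in irradiated Trp53+/+ B cells, and went from 22.2 and 24.8 to 40.4 and 35.6 RPKM in Trp53-/- B cells, without overlap in either. Cycs rose by 0.38 (adjusted p = 0.000997) in Trp53+/+ B cells, short of 0.58, and by 0.68 (adjusted p = 0.000294) in Trp53-/- B cells. The Trp53+/+ non-B cells had 27.5, 24.9, 24.4 and 21.5 RPKM unstressed and 18.2, 21.6, 20.4 and 22.1 after IR, which overlapped, with a difference of -0.25 (95% interval -0.44 to -0.05, adjusted p = 0.0738). Those without p53 had 24.2 and 27.5 RPKM unstressed and 30.1 and 30.04 after IR, with a difference of 0.21 and adjusted p = 0.455.

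In Trp53-/- B cells 3 of 20 list genes were called higher (Pidd1 by 0.73, Cycs by 0.68, Endog by 0.66) and 3 lower (Naip5, Naip2 and Xaf1, by 0.97, 0.67 and 0.64), near the 13.1% and 11.2% of all genes, with a median of 0.06 beside 0.02. The genotype difference in B cells was called for 3 of 20, against 18.8% of all genes. It was positive for Pidd1 (2.46) and Dffb (1.18) and negative for Htra2 (-0.45), the mitochondrial serine protease that antagonizes Xiap.

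In Trp53+/+ non-B cells 3 of 21 list genes were called higher and 0 lower, against 5.74% and 4.11% of all genes, with a median of 0.16 beside -0.03. They were Pidd1 (1.51), Casp4 (0.85), an inflammatory caspase, and Dffb (0.81). Pidd1 was at 14.4, 13.4, 7.23 and 7.85 RPKM there unstressed and at 33.3, 28.6, 26.3 and 33.1 after IR, without overlap. In Trp53-/- non-B cells limma called 0 of 21, against 0.442% of all genes, with 3 at an unadjusted p under 0.05. The genotype difference was called for 2 of 21, Pidd1 (1.69) and Naip5 (0.99), near the 7.35% of all genes. The response of B cells was more positive than that of non-B cells for Pidd1 (1.68), Dffb (0.65) and Cycs (0.63), and more negative for Naip2 (-1.10), Naip5 (-1.03), Xaf1 (-0.97) and Casp1 (-0.70), together 7 of 21, near the 28% of all genes.

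**Figure D5:**
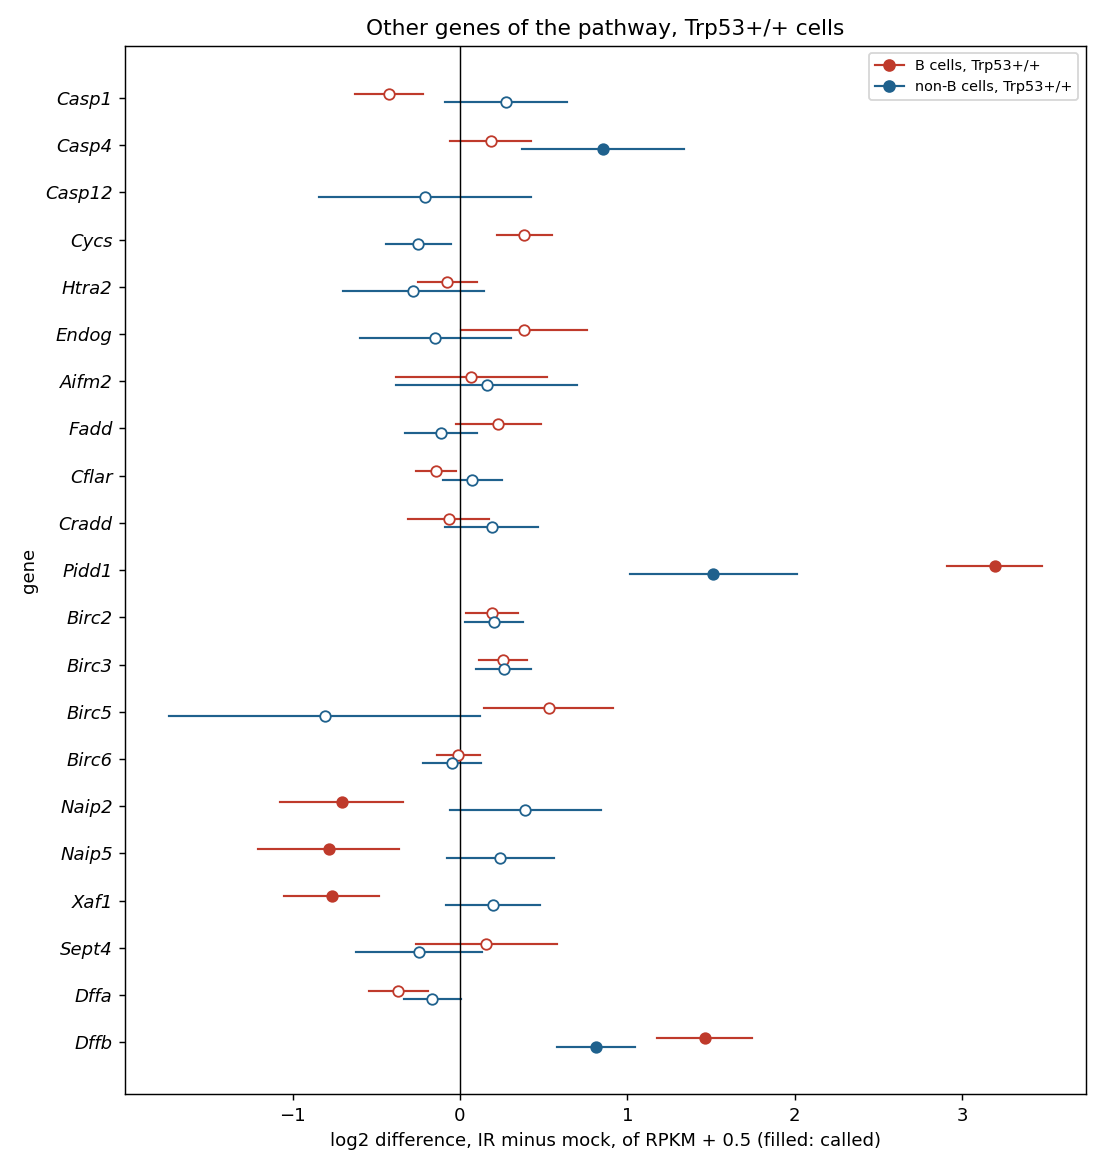
Log2 difference between irradiated and unstressed samples (horizontal axis) for the tested genes of the pathway list in Trp53+/+ B and non-B cells, with 95% confidence intervals from limma and filled points for called genes. Pidd1 is at 3.20 in Trp53+/+ B cells and 1.51 in Trp53+/+ non-B cells, the highest of the list in both.

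Likeness to the 3 members whose group means spanned at least 1 was measured as the root-mean-square difference between centred profiles of the 8 group means, over 14597 other genes. Cby1 (0.196) and Cpped1 (0.201) were most like Apaf1. Cby1 averaged 9.07 RPKM in unstressed and 34.6 in irradiated Trp53+/+ B cells and 4.98 in irradiated Trp53-/- B cells, the same order as Apaf1 at these 3 points. Pbx4 (0.092) and Mical1 (0.112) were most like Casp9, and Sec24d (0.068) and 4930402H24Rik (0.083) most like Casp6. These are descriptions over 8 groups of shared libraries.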

How the data were processed

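The authors deposited 1 file of RPKM per sample. They masked bases under quality 20, aligned reads to mm9 with TopHat (TopHat2 2.0.8 in the processing notes), kept 1 read of each set of duplicates, counted reads per gene with featureCounts 1.4.5 and scaled by exon-mapped reads and exon length. Removing duplicates can compress high values. The highest member value here was 60.3 RPKM, where the highest value of any gene was 157 to 307 RPKM per sample. The study's own calls used counts, which were not used here, so RPKM values were tested with limma 3.58.1 (R 4.3.3) as log2(RPKM + 0.5), with genes kept at RPKM above 1 in at least 1 Trp53+/+ sample. B and non-B cells were fitted separately with 12 samples each, and 16 Trp53+/+ samples together for contrasts between cell types, always with all passing genes, whose p-values were adjusted by Benjamini-Hochberg. Fold changes are on the log2(RPKM + 0.5) scale. Single genes were also compared by exact permutation tests over all arrangements (Python 3.11.15, NumPy 2.4.6). On simulated data for the response of Trp53+/+ B cells, the fit recovered 195 of 200 changed genes among 12958. The list named Lrdd, which the files give as Pidd1. Some genes of the pathway are not reported here. The members and lists were chosen with earlier results of these data known. Per the study's methods the samples of a group came from separate mice. The non-B cells were the column flow-through, and both cell types came from 4 Trp53+/+ and 2 Trp53-/- mice per condition. B and non-B samples thus most likely share mice, though no label matches them. The joint fit of both cell types took them as independent. Same-numbered unstressed and irradiated Trp53+/+ non-B samples deviated together (correlations 0.156 to 0.323 over 14688 genes), and were taken as paired in an alternative, whereas those of B cells did not (0.015 to 0.087). No label pairs them. Same-numbered unstressed non-B samples of the 2 genotypes, which are different mice, had correlations of -0.476 and 0.548, so these values cannot show a pairing. Depth was estimated from low values, of which 61.6% to 75.8% per sample came within 0.1 of a whole read, with lengths for 91.1% of genes.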

Additional observations from a re-analysis of the deposited data

Results flagged for a closer look

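The response to IR differed between genotypes for Apaf1 in B cells by 2.96 on the log2 scale, for Casp9 in B cells by -0.52, and for Apaf1 in non-B cells by 1.63, each by the limma test of the difference. Between B and non-B cells of Trp53+/+ mice it differed for Apaf1 by 0.69, for Casp6 by -0.73, for Casp8 by -0.35, for Casp9 by -1.31 and for Diablo by 0.39, by the same test. The Casp9 call was lost in 18 of 22 alternatives and that of Diablo in 16 of 27. The contrasts between genotypes rest on 2 Trp53-/- samples per group. In 32 tests of the groups of 4 for a sample far from the others, with Dixon's critical value that chance passes in about 1 of 20 groups, 0 were found.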

How the results depend on the processing

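Over 80 member results, 1870 of 1984 alternative values kept their direction and side of the threshold, 26 came past it, 39 fell short, 49 uncalled values changed sign and 0 called values reversed. Apaf1 remained called in all alternatives for the response of Trp53+/+ B (1.97 to 2.14) and non-B cells (1.03 to 1.70), the genotype difference in B (2.87 to 3.04) and non-B cells (1.30 to 1.72) and the cell type difference (0.44 to 0.94). Where other calls changed, the cause was not tested. For the genotype difference in B cells, members called went from 2 to 1, with Casp9 lost, under a pseudocount of 1, no filter, RPKM above 1 in at least 4 samples, median-ratio scaling, the replicate block and adjusted p under 0.01. Casp2 was gained in 1 of the 22 alternatives (limma adjusted p = 0.0404). Leaving out 1 sample gave 1 to 2, and 2 only without irradiated Trp53+/+ B replicate 1. Casp9 was called in 4 of 22 alternatives (-0.62 to -0.40, adjusted p 0.0167 to 0.152). In non-B cells this went from 1 to 2, with Diablo added, using Trp53+/+ replicates 1 and 2 only, and was 1 to 2 leaving out 1 sample, 2 only without irradiated Trp53+/+ replicate 4. Between unstressed B and non-B cells it went from 0 to 1 (Apaf1) with replicates 1 and 2 only, was 0 to 1 leaving out 1 sample, 1 only without non-B replicate 3, and was 2 with no threshold on size. The cell type difference went from 5 to 3 with replicates 3 and 4 only and at adjusted p under 0.01. Diablo was called there in 11 of 27 alternatives (adjusted p 0.0101 to 0.134), Xiap in 10 of 27 (0.0226 to 0.29), and Casp8 was lost in 2. With no threshold on size, 7 members passed in Trp53+/+ B, 6 in Trp53-/- B and 2 in Trp53+/+ non-B cells (51.3%, 40.1% and 18.7% of all genes), and with a log2 threshold of 1, 1 (Casp9) in Trp53-/- B cells.

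Genes called overall went from 3415 to 1332 (threshold 1) and 7084 (none) in Trp53+/+ B cells, from 3355 to 1415 and 5547 in Trp53-/- B cells, and from 3587 to 2105 and 5991 between unstressed cell types. In Trp53+/+ non-B cells the 1381 became 305 with the silent-gene covariate, 637 and 2615 at those thresholds, 670 at adjusted p under 0.01 and 918 without irradiated replicate 3. In Trp53-/- non-B cells the 62 became 0 to 49 leaving out 1 sample, 0 at adjusted p under 0.01, 17 with the replicate block, 24 with replicates 1 and 2 only and with quantile normalization, and 37 at a threshold of 1. The genotype difference went from 2594 to 1104 (adjusted p under 0.01) and 1257 to 2691 (leaving out 1 sample) in B cells, and from 1031 to 242, 260 (covariate) and 307 to 1347 in non-B cells. The cell type difference went from 4083 to 2287, and the unstressed genotype comparisons, with 7 and 6, reached at most 13 and 49. The share of calls that were higher moved from 43.4% to 59.1% for the genotype difference in B cells (median-ratio scaling), from 30% to 50.6% between unstressed cell types and from 43.5% to 62.5% in Trp53-/- non-B cells (quantile normalization).

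The replicate block left Apaf1 the 1 member called in Trp53+/+ non-B cells, where same-numbered samples deviated together though no label pairs them. Elsewhere the block lost Casp9 (above) and, for the cell type difference, Diablo (limma adjusted p = 0.0569), gained Xiap (adjusted p = 0.0402) and changed no other member call. It called 3447 genes in Trp53+/+ B cells. A crossed pairing of the Trp53-/- non-B samples, chosen after seeing the data, called 152 genes and 0 members there.

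Depth was estimated, so no counting interval is given, and Casp6 and Casp9 rested on the fewest reads (55 to 323 and 112 to 798). The 2 Trp53-/- samples per group limit each genotype contrast.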
